A study of Mus musculus with 8 samples.

Results

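Hox, T-box and other patterning factors were followed in 4 sorted cell populations of newborn mouse bone marrow. The members were picked by symbol alone: genes of the Hoxa, Hoxb, Hoxc and Hoxd clusters, the *Tbx*, *Meis*, *Pbx*, *Prrx*, *Pitx*, *Irx* and *Lhx* families, the sine oculis family (*Six2*, *Six4*, *Six5* and others), *Lmx1a*, *Lmx1b*, *Shox2*, *En1* and *En2*. Of the 15880 genes in the table of values, 64 met this rule under 63 symbols, because *Hoxa3* is listed under 2 identifiers. The annotation (GENCODE M1) holds 90 genes that fit the rule, and 26 of them are not listed in the table and were not analysed here. They are *En2*, *Hoxb1*, *Hoxb13*, *Hoxc12*, *Hoxc13*, *Hoxd1*, *Hoxd4*, *Hoxd12*, *Hoxd13*, *Irx1*, *Irx2*, *Irx4*, *Irx6*, *Lhx1* to *Lhx5*, *Lhx8*, *Six3*, *Six6*, *Tbx10* and *Tbx19* to *Tbx22*. Of the 64 members, 58 had a value over 2 in at least 2 of the 8 libraries.

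The mice were C57BL/6 pups at postnatal day 1, heterozygous for *Nes-Gfp*, a transgene in which regulatory elements of the nestin gene drive green fluorescent protein (GFP). Cells from crushed, collagenase-digested bones were depleted of CD45, CD31 and Ter119 positive cells and sorted by GFP and by the receptor Pdgfra. The 4 populations are called here double-positive (GFP+ Pdgfra+), Pdgfra-only (GFP- Pdgfra+), GFP-only (GFP+ Pdgfra-) and double-negative (GFP- Pdgfra-). Each had 2 libraries, made from 15000 to 80000 sorted cells of a pool of 3 pups. The labels name femora, tibiae, scapulae, humeri and radii, and the design text also names sterna, so forelimb, hindlimb and possibly axial bone shared each pool and their shares in a library are not known.

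Reads recovered from the values summed to 3221217 to 5302762 per library over the listed genes. A value is a normalised read count, the reads of a gene plus 0.5 divided by an effective library size and scaled to counts as in CPM. A gene with 0 reads thus has a small value above 0, and the floor used here, 3 reads in a library, corresponds to a value of 0.825 to 1.04. An interval after a fold value is a 95% interval, and intervals and floors cover counting error only. The sorting markers followed the gates: *Pdgfra* was at 733 and 754 in double-positive, 839 and 794 in Pdgfra-only, 18.1 and 10.4 in GFP-only and 3.30 and 4.36 in double-negative cells. *Nes* was at 57.6 and 72.0 in double-positive, 27.4 and 47.1 in Pdgfra-only, 149 and 176 in GFP-only and 3.59 and 9.08 in double-negative cells, so Pdgfra-only cells also held *Nes* RNA. In bulk RNA, fewer cells of a type and less RNA per cell cannot be told apart.

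Hox genes lie in 4 clusters, and their order along a cluster matches the order of their expression along the body axis, with high-numbered paralogues most posterior. In limb mesenchyme the high-numbered *Hoxa* and *Hoxd* genes pattern the bone segments from shoulder or hip to digits, *Tbx5* marks the forelimb, and *Tbx4* and *Pitx1* mark the hindlimb. Meis and Pbx proteins bind DNA together with Hox proteins, and the Prrx, Shox, Lmx and Irx factors each mark territories of limb, muscle or nerve.

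Most patterning genes were at or under the floor in double-negative cells, and few were in the marker-positive populations. A population mean of at least 10 was reached by 25 of the 64 members in double-positive, 33 in Pdgfra-only, 18 in GFP-only and 3 in double-negative cells. The highest of the 4 means lay in Pdgfra-only cells for 40 members, in double-positive cells for 12, in GFP-only cells for 9 and in double-negative cells for 3. For all genes, neither this count nor that of means of at least 10 was made. In double-negative cells 41 members, 25 of the 32 Hox genes among them, were at or under the floor in both libraries, against 7, 6 and 12 members in the double-positive, Pdgfra-only and GFP-only populations. Of all genes, 17.2% were at the floor in double-negative cells, and 7.11%, 7.87% and 7.13% in the other populations in that order.

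A limma fit over all 15880 genes on log2(value + 1) tested these differences, with a call at an adjusted p of at most 0.05. On this scale the difference of a gene with low values is smaller than its fold change. Between the 4 populations together, 57 members were called, where 66% of all genes were. Pdgfra-only against double-negative cells gave 51 members called, where 59.7% of all genes were: 51 were higher (32.9% of all genes) and 0 lower (26.8% of all genes). At an unadjusted p under 0.05 limma gave 52 higher and 2 lower, and neither voom nor edgeR called any member lower. For GFP-only against double-negative cells, 39 members were called (53.7% of all genes): 38 were higher (30.1%) and 1, *Pbx3*, was lower (23.6%). Double-positive against GFP-only cells gave 18 called members (24.2%), 13 of them higher (13.1%) and 5 lower (11.1%). For double-positive against Pdgfra-only cells, 12 members were called (5.35%): 1 was higher (3.22%) and 11 were lower (2.13%). The comparisons share libraries, so their counts are not independent of each other.

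The median log2 difference of the members was 2.93 for Pdgfra-only against double-negative cells (all genes 0.17), 1.70 for GFP-only against double-negative cells (all genes 0.15; 1.67 with members at 0 reads set to their bound), 0.41 for double-positive against GFP-only cells (all genes -0.02; 0.37 with bounds) and -0.29 for double-positive against Pdgfra-only cells (all genes 0.00). The interaction term tests whether the GFP difference among Pdgfra-positive cells equals that among Pdgfra-negative cells. It was called for 44 members (44.3% of all genes), 44 with a lower GFP difference among Pdgfra-positive cells (25.2%) and 0 with a higher one (19.1%). At an unadjusted p under 0.05 limma gave 1 higher and 46 lower, and voom and edgeR called 0 higher. Scaling matters against the double-negative libraries: median centring shifted all differences by -0.45 (GFP-only against double-negative), -0.45 (Pdgfra-only against double-negative) and 0.43 (interaction), and quantile normalization shifted their medians by -0.30, -0.33 and 0.25. In sign, 57 of 64 members were higher in GFP-only than in double-negative cells as deposited, 49 under median centring and 50 under quantile normalization; for Pdgfra-only against double-negative cells these counts were 60, 58 and 59.

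Blood genes marked the double-negative libraries. Of 9 blood markers 8 are listed, and they summed to 26.5 and 35.4 in double-positive, 54.2 and 36.2 in Pdgfra-only, 98.3 and 67.1 in GFP-only and 6715 and 12082 in double-negative cells, with *Hbb-b1* the most abundant in each population. Its mean was 5991 in double-negative cells, where *Ptprc*, which encodes CD45, was at 11.3 and 6.72. All 8 had reads in double-negative cells although CD45 and Ter119 positive cells had been gated out, and in Pdgfra-only cells *Ptprc* had 0 reads. The part of blood RNA in the low levels of the members in double-negative cells was not tested.

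All 4 Hox clusters were expressed, with 12 listed entries in Hoxa, 8 in Hoxb, 7 in Hoxc and 5 in Hoxd. In build NCBIM37 the listed Hoxb, Hoxc and Hoxd genes span chr11:96132771-96217003 (Hoxb), chr15:102784858-102867274 (Hoxc) and chr2:74517449-74586331 (Hoxd). The summed Hox values were 239 and 225 in double-positive, 307 and 309 in Pdgfra-only, 145 and 155 in GFP-only and 13.5 and 16.98 in double-negative cells. Both Pdgfra-positive populations thus lay above GFP-only cells, Pdgfra-only cells were highest, and no 2 populations overlapped. A mean of at least 10 in some population was reached by 7 Hoxa, 0 Hoxb, 5 Hoxc and 1 Hoxd entries. The Hoxc cluster summed to 70.8 and 72.9 in double-positive, 109 and 86.9 in Pdgfra-only, 74.4 and 66.0 in GFP-only and 3.88 and 3.66 in double-negative cells, and the Hoxa cluster to 126 and 116 in double-positive, 137 and 154 in Pdgfra-only, 49.3 and 59.9 in GFP-only and 4.02 and 8.73 in double-negative cells. The Hoxc sums of double-positive and GFP-only cells overlapped, while their Hoxa sums did not.

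Some Hox values are uncertain because exons overlap, and the labels do not say that counting used the strand. Of the 64 members 24 share exon bases with another annotated gene, 18 with a gene that is itself listed, 14 on the opposite strand and 13 on the same strand. The *Hoxa3* identifiers share 2168 exon bases with each other, *Hoxb7* and *Hoxb8* share 1069, *Hoxd3* and the unlisted *Hoxd4* share 1725, and *Hoxa2* shares 267 with *Hoxa3*. On the opposite strand *Hoxb2* and *Hoxb3* share 1632 and 1140 bases with *Hoxb3os*, and *Hoxa11* shares 1038 with *Hoxa11as*.

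Anterior *Hoxa* genes separated the Pdgfra-positive populations from GFP-only cells. *Hoxa2*, which patterns the second branchial arch, was at 17.8 and 20.8 in double-positive, 21.6 and 20.9 in Pdgfra-only, 3.04 and 5.53 in GFP-only and 0.144 and 0.118 in double-negative cells. All 4 Pdgfra-positive libraries lay far above both GFP-only libraries, and the double-negative libraries had 0 reads. *Hoxa2* was 4.65-fold higher in double-positive than in GFP-only cells (log2 difference 1.98, SE 0.37, adjusted p = 0.002) and at least 23.2-fold higher in Pdgfra-only than in double-negative cells (adjusted p = 7.2e-07). *Hoxa3* under ENSMUSG00000079560 was at 29.1 and 21.1 in double-positive, 25.3 and 36.4 in Pdgfra-only, 6.68 and 7.33 in GFP-only and 0.718 and 1.30 in double-negative cells. Its Pdgfra-positive libraries overlapped one another and lay above GFP-only cells, by 3.65-fold for double-positive cells (log2 difference 1.69, SE 0.34, adjusted p = 0.0031). The shorter *Hoxa3* entry, ENSMUSG00000059723, was at 4.56 and 5.03 in double-positive, 1.89 and 4.60 in Pdgfra-only, 0.607 and 0.643 in GFP-only and 0.431 and 0.118 in double-negative cells. Its Pdgfra-positive libraries were again above GFP-only ones, 9.30-fold (interval 3.31 to 36.1) higher in double-positive than in GFP-only cells (log2 difference 1.83, SE 0.42, adjusted p = 0.007), and its adjusted p was 0.053 without GFP-only replicate 1 (0.006 to 0.053 over all settings). *Hoxa5*, a gene of neck and upper thorax, was at 16.7 and 15.1 in double-positive, 15.3 and 12.6 in Pdgfra-only, 3.04 and 5.79 in GFP-only and 0.144 and 1.06 in double-negative cells. The 4 Pdgfra-positive libraries overlapped one another, and double-positive cells were 3.71-fold above GFP-only cells (log2 difference 1.69, SE 0.42, adjusted p = 0.011). That adjusted p became 0.081 with a pseudocount of 0.1, 0.059 without double-positive replicate 1 and 0.12 without GFP-only replicate 1 (0.0061 to 0.12 over all settings).

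The middle *Hoxa* genes were closer between the marker-positive populations. *Hoxa6*, at 8.42 and 13.7 in double-positive, 13.2 and 16.5 in Pdgfra-only, 4.25 and 7.85 in GFP-only and 0.431 and 2.00 in double-negative cells, overlapped between double-positive and Pdgfra-only cells, and the highest GFP-only library lay under the lowest double-positive one. *Hoxa7*, which patterns thoracic segments, was at 26.4 and 24.3 in double-positive, 21.1 and 23.0 in Pdgfra-only, 12.3 and 16.6 in GFP-only and 1.01 and 1.06 in double-negative cells. The Pdgfra-positive libraries of *Hoxa7* lay between 21.1 and 26.4, above both GFP-only libraries, but double-positive and GFP-only cells were not called different (adjusted p = 0.077). *Hoxa7* was 15.7-fold (interval 7.38 to 40.0) higher in GFP-only than in double-negative cells (log2 difference 2.91, SE 0.30, adjusted p = 4.9e-06). For *Hoxa6* this ratio was 5.04-fold (interval 2.44 to 11.7) (log2 difference 1.72, SE 0.45, adjusted p = 0.0067), with an adjusted p of 0.081 under quantile normalization, 0.082 without GFP-only replicate 2 and 0.064 without double-negative replicate 1 (0.0019 to 0.082 over all settings).

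Posterior *Hoxa* genes were highest in Pdgfra-only cells. *Hoxa9* was at 4.83 and 5.89 in double-positive, 9.96 and 11.7 in Pdgfra-only, 8.13 and 5.79 in GFP-only and 0.144 and 1.06 in double-negative cells. GFP-only libraries overlapped double-positive ones here, and both Pdgfra-only libraries lay above all others. *Hoxa10*, which patterns the thigh and upper arm segment, was at 8.98 and 5.32 in double-positive, 14.2 and 7.57 in Pdgfra-only, 4.98 and 5.53 in GFP-only and 0.144 and 0.825 in double-negative cells. Its Pdgfra-only and double-positive libraries overlapped. Neither gene was called between the Pdgfra-positive populations (adjusted p = 0.27 for *Hoxa9* and 0.59 for *Hoxa10*), and both were called higher in Pdgfra-only than in double-negative cells (adjusted p = 5.3e-05 and 8.6e-05). *Hoxa4*, *Hoxa11* and *Hoxa13* had population means of at most 9.33, that of *Hoxa11* in Pdgfra-only cells.

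The Hoxb cluster was low throughout, with no population mean above 7.02, that of *Hoxb5* in Pdgfra-only cells. *Hoxb3* was at 5.11 and 4.74 in double-positive, 6.18 and 5.197 in Pdgfra-only, 1.82 and 3.22 in GFP-only and 0.718 and 0.825 in double-negative cells. *Hoxb4*, known in blood stem cells, was at 5.66 and 5.03 in double-positive, 6.18 and 4.01 in Pdgfra-only, 3.04 and 2.96 in GFP-only and 0.144 and 0.354 in double-negative cells. *Hoxb5* was at 7.60 and 2.16 in double-positive, 7.94 and 6.09 in Pdgfra-only, 1.58 and 2.19 in GFP-only and 0.718 and 0.354 in double-negative cells. Double-positive and Pdgfra-only libraries overlapped for *Hoxb4* and *Hoxb5* and lay close for *Hoxb3*, and the GFP-only libraries lay lower for *Hoxb3* and *Hoxb4*, while for *Hoxb5* the highest GFP-only library (2.19) passed the lowest double-positive one (2.16). *Hoxb9* went the other way, at 3.18 and 0.719 in double-positive, 0.882 and 0.446 in Pdgfra-only, 4.01 and 6.05 in GFP-only and 0.144 and 0.118 in double-negative cells. Both GFP-only libraries were above all others, and *Hoxb9* was at least 5.49-fold higher in GFP-only than in double-negative cells (log2 difference 2.39, SE 0.46, adjusted p = 8.1e-04), which had 0 reads. Against double-positive cells the difference did not pass (adjusted p = 0.094). Of 8 Hoxb genes, 5 were called between the 4 populations, where 66% of all genes were, and *Hoxb2*, *Hoxb7* and *Hoxb8* were not.

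*Hoxc4* to *Hoxc8* were above the floor in every library of the 3 marker-positive populations. *Hoxc4* was at 17.5 and 11.6 in double-positive, 16.01 and 13.2 in Pdgfra-only, 21.0 and 12.99 in GFP-only and 0.718 and 0.118 in double-negative cells. *Hoxc5* was at 9.80 and 8.19 in double-positive, 12.2 and 10.2 in Pdgfra-only, 5.22 and 10.4 in GFP-only and 0.144 and 0.354 in double-negative cells. *Hoxc6*, a gene of the brachial and thoracic level, was at 20.3 and 26.0 in double-positive, 24.8 and 22.7 in Pdgfra-only, 18.8 and 14.8 in GFP-only and 0.718 and 0.590 in double-negative cells. For *Hoxc4* the 3 marker-positive populations overlapped, for *Hoxc5* the GFP-only libraries reached both Pdgfra-positive ranges, and for *Hoxc6* both GFP-only libraries lay a little under the others. *Hoxc8*, active at forelimb to thoracic level, was at 13.1 and 13.9 in double-positive, 19.3 and 19.2 in Pdgfra-only, 18.1 and 17.6 in GFP-only and 0.718 and 2.00 in double-negative cells. Here GFP-only libraries lay between the Pdgfra-positive populations, with double-positive cells lowest of the 3. Of the 7 listed Hoxc genes, limma, voom and edgeR each called 0 between double-positive and GFP-only cells (24.2% of all genes in limma), and each gave 0 at an unadjusted p under 0.05. *Hoxc8* was 13.7-fold (interval 7.23 to 29.2) higher in GFP-only than in double-negative cells (log2 difference 3.05, SE 0.34, adjusted p = 9.8e-06) and *Hoxc6* 32.3-fold (interval 12.3 to 120.3) higher (log2 difference 3.42, SE 0.30, adjusted p = 1.4e-06). *Hoxc4* (65.6-fold (interval 17.8 to 547), adjusted p = 6.6e-06) and *Hoxc5* (58.8-fold (interval 10.2 to 2362), adjusted p = 9.7e-05) were likewise higher in GFP-only cells.

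Posterior *Hoxc* genes, which in limbs are expressed mainly in the hindlimb, again peaked in Pdgfra-only cells. *Hoxc9* was at 1.52 and 1.58 in double-positive, 4.41 and 4.01 in Pdgfra-only, 3.76 and 2.70 in GFP-only and 1.01 and 0.354 in double-negative cells. *Hoxc10* was at 8.42 and 11.4 in double-positive, 30.9 and 15.3 in Pdgfra-only, 7.16 and 7.33 in GFP-only and 0.431 and 0.118 in double-negative cells. *Hoxc11* was at 0.138 and 0.144 in double-positive, 1.13 and 2.23 in Pdgfra-only, 0.364 and 0.129 in GFP-only and 0.144 and 0.118 in double-negative cells, with 0 reads in double-positive cells. For all 3 both Pdgfra-only libraries lay above the other 6, and for *Hoxc10* the Pdgfra-only libraries spread from 15.3 to 30.9. Between Pdgfra-positive populations none passed the test (adjusted p = 0.17, 0.17 and 0.077). Against double-negative cells *Hoxc10* was 182-fold (interval 32.3 to 7237) higher in Pdgfra-only cells (log2 difference 4.17, SE 0.40, adjusted p = 2.3e-06), and *Hoxc11* at least 1.84-fold higher (log2 difference 1.22, SE 0.35, adjusted p = 0.01). The adjusted p of *Hoxc11* became 0.09 under median centring, 0.073 without Pdgfra-only replicate 2 and 0.055 without double-negative replicate 2 (0.0046 to 0.09 over all settings).

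Of the 5 listed *Hoxd* genes, 3 were called lower in double-positive than in Pdgfra-only cells, where 2.13% of all genes were. This count was 0 without double-positive replicate 1 or Pdgfra-only replicate 2, 1 without Pdgfra-only replicate 1 and 2 without any other library; voom called 2 and edgeR 1. *Hoxd8* was at 10.9 and 7.62 in double-positive, 10.97 and 16.5 in Pdgfra-only, 6.43 and 5.02 in GFP-only and 0.431 and 1.06 in double-negative cells. Its double-positive and Pdgfra-only libraries did not overlap but lay close, at 10.9 and 10.97 at their nearest, and they were not called different (adjusted p = 0.55). *Hoxd9* (ENSMUSG00000043342), which patterns the proximal limb, was at 1.24 and 2.16 in double-positive, 8.45 and 9.06 in Pdgfra-only, 0.364 and 0.900 in GFP-only and 0.144 and 0.590 in double-negative cells. *Hoxd11* (ENSMUSG00000042499), needed for forearm bones, was at 0.414 and 1.29 in double-positive, 6.18 and 10.5 in Pdgfra-only, 0.850 and 0.386 in GFP-only and 0.718 and 0.354 in double-negative cells. In both genes the Pdgfra-only libraries stood alone, and the other 6 libraries lay at or under 2.16 for *Hoxd9* and 1.29 for *Hoxd11*. *Hoxd9* was 5.54-fold (interval 2.90 to 11.7) lower in double-positive than in Pdgfra-only cells (log2 difference -1.87, SE 0.40, adjusted p = 0.018). For *Hoxd11* the ratio was 11.4-fold (interval 4.63 to 36.5) (log2 difference -2.34, SE 0.42, adjusted p = 0.0072). Those calls ended in some settings: the adjusted p of *Hoxd9* became 0.13 with a pseudocount of 0.1, 0.087 with edgeR, 0.1 without double-positive replicate 1, 0.095 without Pdgfra-only replicate 1, 0.11 without Pdgfra-only replicate 2 and 0.051 with only the compared libraries fitted (0.012 to 0.13 over all settings), and that of *Hoxd11* 0.066 without double-positive replicate 1 and 0.086 without Pdgfra-only replicate 2 (0.0057 to 0.086). *Hoxd10* and *Hoxa13*, named after their values were seen, were also called lower in double-positive cells, at 0.414 and 0.719 against 3.40 and 2.52 for *Hoxd10* and 0.414 and 0.144 against 2.65 and 3.12 for *Hoxa13*. The adjusted p of *Hoxa13* (0.026) became 0.1 with edgeR, 0.065 without double-positive replicate 1, 0.11 without double-positive replicate 2, 0.11 without Pdgfra-only replicate 1, 0.14 without Pdgfra-only replicate 2 and 0.059 with only the compared libraries fitted (0.021 to 0.14 over all settings). That of *Hoxd10* (0.0499) became 0.16 and 0.082 without double-positive replicates 1 and 2, 0.22 and 0.12 without Pdgfra-only replicates 1 and 2, and 0.07 to 0.072 without any other library. It was also over 0.05 with the replicate block, a pseudocount of 0.1, a filter on low values, library weights, voom, edgeR (0.26) and only the compared libraries fitted.

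**Figure D1:**
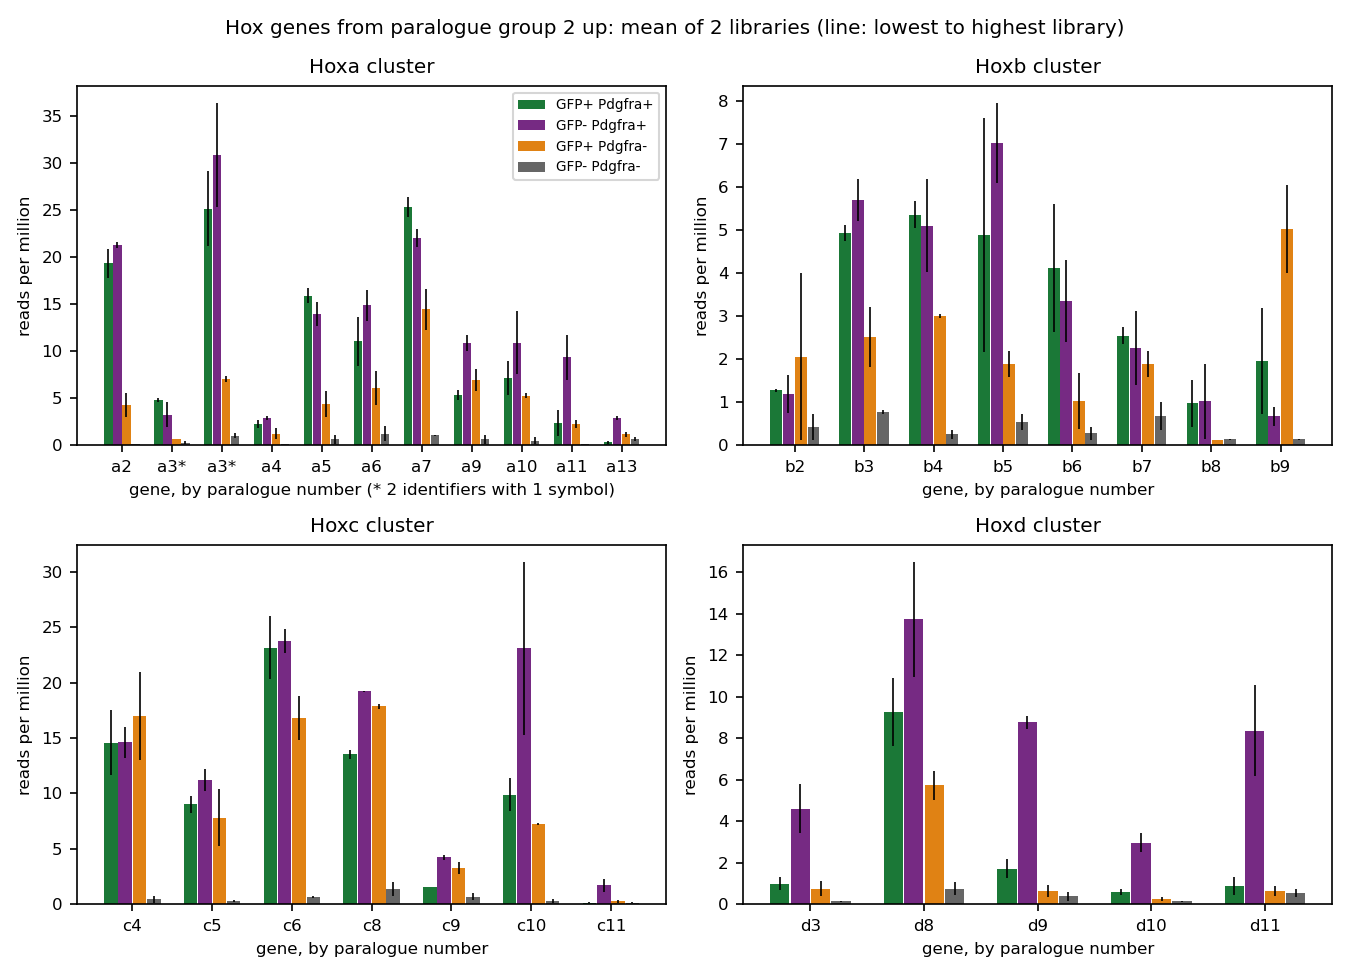
Mean value (normalised read count, CPM scale) of Hox genes from paralogue group 2 up by cluster and population; lines run from the lowest to the highest of the 2 libraries, and *Hoxa3* is drawn under both identifiers. GFP-only bars come near the Pdgfra-positive ones for *Hoxc4* to *Hoxc8*, whereas *Hoxd9* to *Hoxd11* are highest in Pdgfra-only cells.

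Summed by paralogue group, posterior genes made up a smaller share of the Hox reads in double-positive cells than in the other marker-positive cells. The 32 entries fall into 10 of groups 1 to 4, 11 of groups 5 to 8 and 11 of groups 9 to 13. Reads of groups 9 to 13, with 95% Wilson intervals, made up 115 of 851 (13.5%, interval 11.4 to 15.98) and 100 of 765 (13.1%, interval 10.9 to 15.6) of all Hox reads in double-positive cells. The same count was 348 of 1200 (29.0%, interval 26.5 to 31.6) and 258 of 1025 (25.2%, interval 22.6 to 27.9) in Pdgfra-only cells. In GFP-only cells it was 129 of 583 (22.1%, interval 18.9 to 25.7) and 123 of 587 (21.0%, interval 17.9 to 24.4). Double-negative cells had 7 of 31 (22.6%, interval 11.4 to 39.8) and 14 of 56 (25.0%, interval 15.5 to 37.7), too few reads to place them. The intervals of both double-positive libraries lay under those of all 4 other marker-positive libraries. Such intervals cover counting error only. The 2 libraries of a marker-positive population differed by more than counting error across genes (chi-square per degree of freedom 4.365 to 9.92). The posterior share was not tested. Summed values of groups 9 to 13 were 33.3 and 30.3 in double-positive, 89.1 and 78.3 in Pdgfra-only, 32.7 and 33.1 in GFP-only and 3.59 and 4.60 in double-negative cells. Double-positive and GFP-only cells overlapped in this sum, while Pdgfra-only cells were far above both.

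By gene, the median log2 difference between double-positive and Pdgfra-only cells was -0.15 for groups 1 to 4, -0.05 for groups 5 to 8 and -1.20 for groups 9 to 13 (-1.08 with bounds), beside 0.00 for all genes. In groups 9 to 13, 10 of 11 genes were lower in double-positive cells in sign, as deposited and under both other scalings, and 4 of 11 were called (2.13% of all genes). Of these 4 calls 0 held without double-positive replicate 1, 2 without double-positive replicate 2, 1 without Pdgfra-only replicate 1 and 0 without Pdgfra-only replicate 2, and 3 without any other library. Voom called 3 Hox genes lower and edgeR 1, and at an unadjusted p under 0.05 limma and voom gave 10 lower and edgeR 8. No Hox gene was called higher in double-positive cells by limma (3.22% of all genes were), and 0 were at an unadjusted p under 0.05 or with voom or edgeR. Between GFP-only and double-negative cells all 11 genes of groups 9 to 13 were higher in sign as deposited, but 6 of 11 under either other scaling. Groups 1 to 4 gave 10 of 10 in that comparison, and 9 of 10 under either other scaling.

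**Figure D2:**
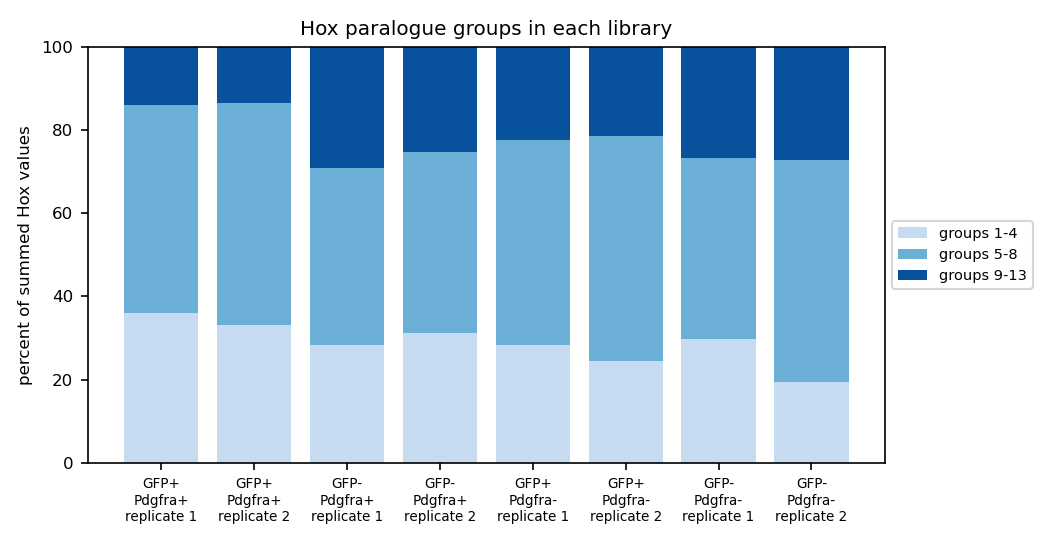
Percent of the summed Hox values held by paralogue groups 1 to 4, 5 to 8 and 9 to 13 in each of the 8 libraries. Groups 9 to 13 hold 13.9% and 13.5% in double-positive (GFP+ Pdgfra+) libraries, 29.1% and 25.3% in Pdgfra-only (GFP- Pdgfra+), 22.5% and 21.3% in GFP-only (GFP+ Pdgfra-), and 26.6% and 27.1% in double-negative (GFP- Pdgfra-) libraries, the last from 31 and 56 Hox reads.

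Genes of forelimb and hindlimb identity were both present and both were highest in Pdgfra-only cells. *Tbx5* (ENSMUSG00000018263), the forelimb T-box gene, was at 15.3 and 16.8 in double-positive, 53.8 and 50.9 in Pdgfra-only, 2.06 and 1.41 in GFP-only and 0.144 and 0.590 in double-negative cells. The populations did not overlap: Pdgfra-only cells were highest, double-positive cells next, and GFP-only cells near the floor. *Tbx5* was 3.29-fold lower in double-positive than in Pdgfra-only cells (log2 difference -1.65, SE 0.35, adjusted p = 0.018) and 9.80-fold higher than in GFP-only cells (log2 difference 2.65, SE 0.35, adjusted p = 1.9e-04). The first of these had an adjusted p of 0.14 with a pseudocount of 0.1, 0.096 without double-positive replicate 1, 0.07 without double-positive replicate 2, 0.14 without Pdgfra-only replicate 1 and 0.13 without Pdgfra-only replicate 2 (4.8e-04 to 0.14 over all settings). *Tbx4* (ENSMUSG00000000094), its hindlimb counterpart, was at 2.35 and 6.76 in double-positive, 27.9 and 15.3 in Pdgfra-only, 10.1 and 11.4 in GFP-only and 0.431 and 0.825 in double-negative cells. GFP-only libraries lay between the Pdgfra-positive populations, in contrast to their *Tbx5* level. *Tbx4* was 5.03-fold lower in double-positive than in Pdgfra-only cells (log2 difference -2.09, SE 0.46, adjusted p = 0.021), with an adjusted p of 0.064 with a pseudocount of 0.1, 0.054 without a variance trend, 0.14 without double-positive replicate 1, 0.21 without Pdgfra-only replicate 1, 0.068 without Pdgfra-only replicate 2, 0.057 without GFP-only replicate 1, 0.057 without GFP-only replicate 2 and 0.062 with only the compared libraries fitted (0.011 to 0.21 over all settings). Against GFP-only cells, double-positive cells did not pass (adjusted p = 0.081).

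*Pitx1* (ENSMUSG00000021506), which acts upstream of *Tbx4* in the hindlimb, was at 2.62 and 1.29 in double-positive, 9.20 and 6.98 in Pdgfra-only, 0.364 and 0.643 in GFP-only and 0.144 and 0.118 in double-negative cells. Pdgfra-only libraries were highest, and double-positive libraries did not overlap them. *Pitx1* was 4.39-fold lower in double-positive than in Pdgfra-only cells (log2 difference -1.65, SE 0.39, adjusted p = 0.031), with an adjusted p of 0.15 with a pseudocount of 0.1, 0.13 with edgeR, 0.15 without double-positive replicate 2, 0.18 without Pdgfra-only replicate 1, 0.1 without Pdgfra-only replicate 2, 0.058 without GFP-only replicate 1, 0.058 without GFP-only replicate 2 and 0.091 with only the compared libraries fitted (0.022 to 0.18 over all settings). In GFP-only cells *Tbx4* thus had a mean of 10.8, while *Pitx1* was under the floor in both libraries. *Tbx5* was 6.27-fold (interval 1.42 to 57.2) higher in GFP-only than in double-negative cells (log2 difference 1.01, SE 0.35, adjusted p = 0.029), and that adjusted p became 0.2 under median centring, 0.27 under quantile normalization, 0.13 without GFP-only replicate 1 and 0.13 without double-negative replicate 1 (0.0076 to 0.27 over all settings).

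*Tbx15* (ENSMUSG00000027868), known for its role in scapula and skeletal development, was at 58.7 and 54.2 in double-positive, 161 and 132 in Pdgfra-only, 50.9 and 52.1 in GFP-only and 1.01 and 2.24 in double-negative cells. Double-positive and GFP-only libraries lay within 50.9 to 58.7, and both Pdgfra-only libraries lay above that, at 161 and 132. *Tbx15* was 2.62-fold lower in double-positive than in Pdgfra-only cells (log2 difference -1.35, SE 0.24, adjusted p = 0.0067), with an adjusted p of 0.051 without double-positive replicate 1, 0.056 without double-positive replicate 2, 0.11 without Pdgfra-only replicate 1 and 0.058 without Pdgfra-only replicate 2 (1.1e-04 to 0.11 over all settings). *Tbx3*, which acts at the posterior and anterior limb margins, was at 46.0 and 48.4 in double-positive, 64.4 and 63.7 in Pdgfra-only, 41.2 and 46.9 in GFP-only and 1.01 and 3.42 in double-negative cells. Its Pdgfra-only libraries were highest, and double-positive and GFP-only libraries overlapped; no call was made between double-positive cells and either (adjusted p = 0.52 and 0.86). *Tbx3* was 19.9-fold higher in GFP-only than in double-negative cells (log2 difference 3.92, SE 0.31, adjusted p = 5.9e-07). All 8 listed T-box genes were called higher in GFP-only than in double-negative cells (30.1% of all genes), 6 were called higher in Pdgfra-only than in double-negative cells (32.9%), and 3 were called lower in double-positive than in Pdgfra-only cells (2.13%). The count of 8 was 6 under median centring and quantile normalization, 6 without GFP-only replicate 1 or double-negative replicate 1, and 7 or 8 without any other library. The count of 3 was 1 without double-positive replicate 2, 0 without double-positive replicate 1 or either Pdgfra-only library, and 2 without either GFP-only library; voom and edgeR called 3, and 1 passed with a pseudocount of 0.1. *Tbx2* and *Tbx18* reached population means of 17.3 and 31.2 in Pdgfra-only cells, and *Tbx1* and *Tbx6* stayed at or under 8.42.

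**Figure D3:**
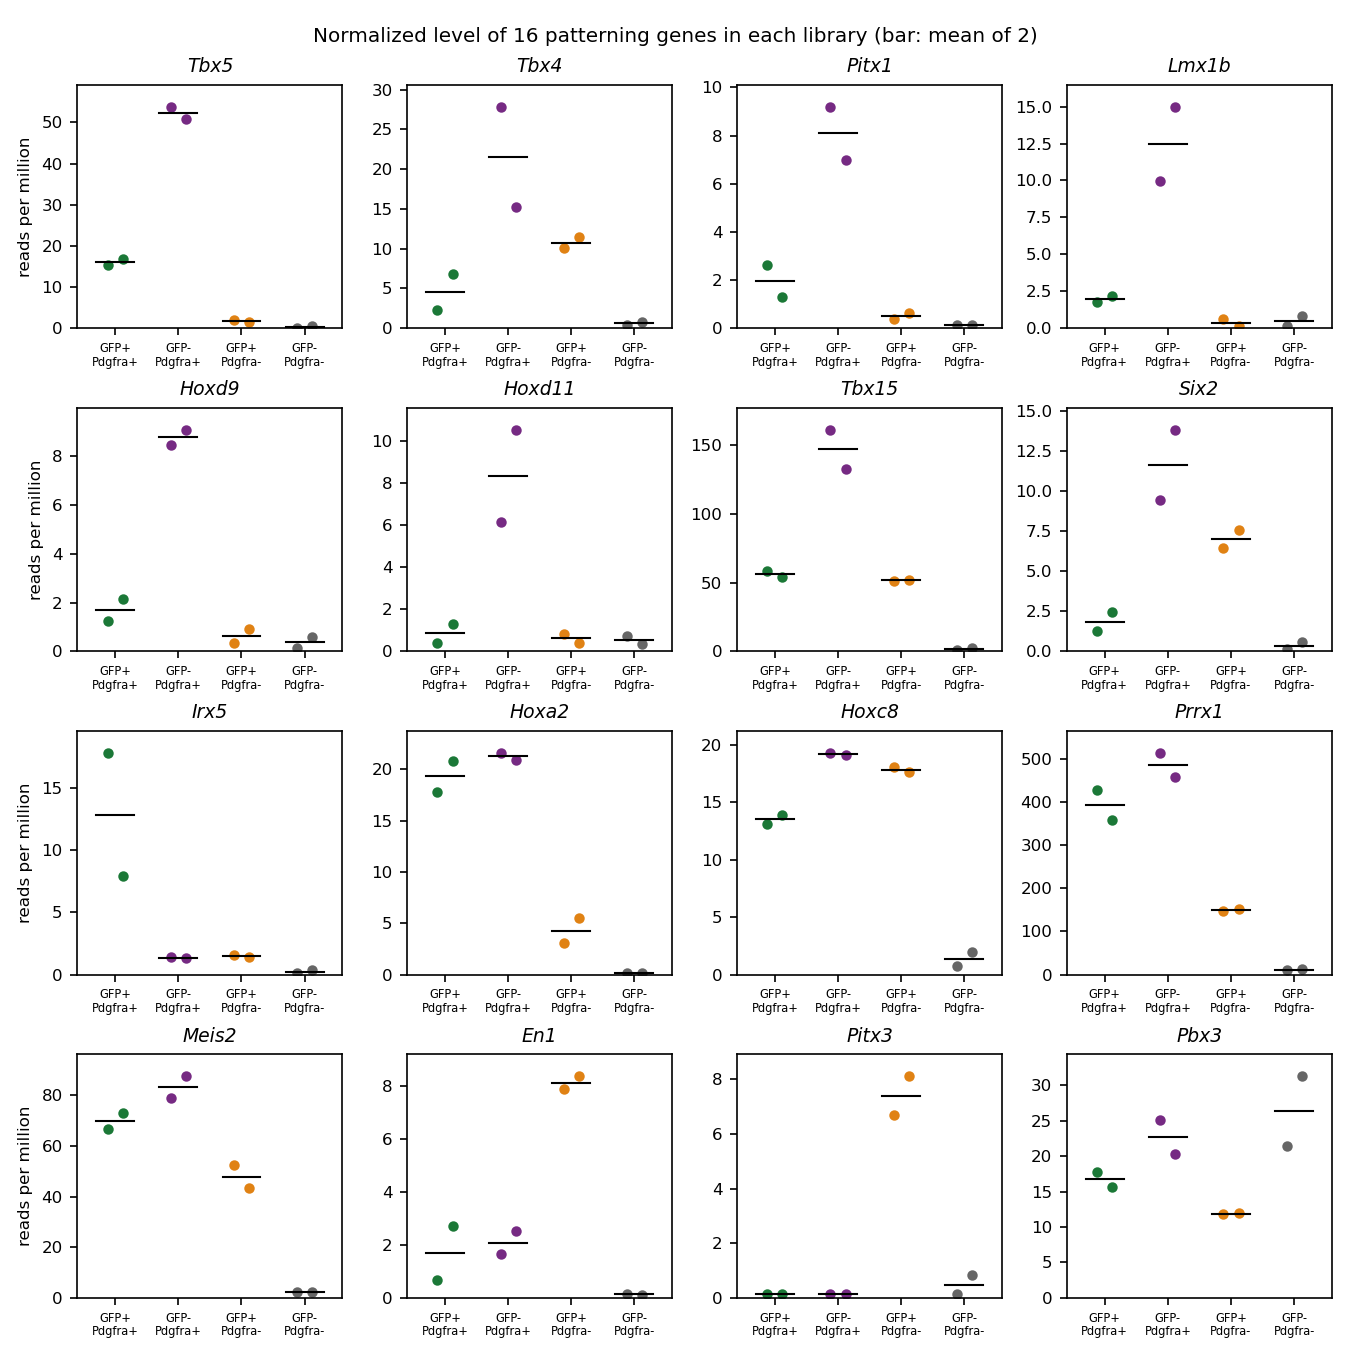
Value (normalised read count on the CPM scale) of *Tbx5*, *Tbx4*, *Pitx1*, *Lmx1b*, *Hoxd9*, *Hoxd11*, *Tbx15*, *Six2*, *Irx5*, *Hoxa2*, *Hoxc8*, *Prrx1*, *Meis2*, *En1*, *Pitx3* and *Pbx3* in each library; points are libraries and bars the mean of 2. *Tbx5* is highest in the Pdgfra-only libraries (53.8 and 50.9), *Irx5* in the double-positive ones (17.8 and 7.91) and *Pitx3* in the GFP-only ones (6.68 and 8.10).

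Dorsal limb and mesenchyme homeobox genes split the populations in several ways. *Lmx1b* (ENSMUSG00000038765), which specifies dorsal limb pattern, was at 1.80 and 2.16 in double-positive, 9.96 and 15.00 in Pdgfra-only, 0.607 and 0.129 in GFP-only and 0.144 and 0.825 in double-negative cells. Pdgfra-only libraries were above the other 6, and *Lmx1b* was 6.63-fold lower in double-positive than in Pdgfra-only cells (log2 difference -2.16, SE 0.42, adjusted p = 0.011). Its adjusted p became 0.14 with a pseudocount of 0.1, 0.068 without double-positive replicate 1 and 0.11 without Pdgfra-only replicate 2 (0.0084 to 0.14 over all settings). The related *Lmx1a*, better known from roof plate and midbrain, was at 8.42 and 9.34 in double-positive, 13.7 and 8.46 in Pdgfra-only, 0.850 and 0.643 in GFP-only and 0.144 and 0.118 in double-negative cells. Here both Pdgfra-positive populations were alike and overlapped, and double-positive cells were 13.98-fold (interval 5.68 to 44.6) above GFP-only cells (log2 difference 2.50, SE 0.39, adjusted p = 6.4e-04). *Shox2*, which acts in the proximal limb segment, was at 49.0 and 27.7 in double-positive, 34.2 and 40.5 in Pdgfra-only, 5.46 and 4.50 in GFP-only and 0.431 and 2.00 in double-negative cells. The Pdgfra-positive libraries overlapped, and double-positive cells were 7.89-fold above GFP-only cells (log2 difference 2.67, SE 0.40, adjusted p = 4.9e-04).

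*Prrx1*, a general marker of limb bud mesenchyme, was at 427 and 357 in double-positive, 513 and 458 in Pdgfra-only, 148 and 152 in GFP-only and 9.91 and 13.8 in double-negative cells. No 2 populations overlapped, with all 4 Pdgfra-positive libraries at 357 or more and GFP-only cells between them and double-negative cells. *Prrx1* was 2.63-fold higher in double-positive than in GFP-only cells (log2 difference 1.38, SE 0.17, adjusted p = 9.0e-05), 12.6-fold higher in GFP-only than in double-negative cells (log2 difference 3.57, SE 0.17, adjusted p = 6.5e-09), and not called between the Pdgfra-positive populations (adjusted p = 0.35). *En1*, a gene of ventral limb ectoderm and of a somite compartment, was named after its values were seen: it was at 0.690 and 2.73 in double-positive, 1.64 and 2.52 in Pdgfra-only, 7.89 and 8.36 in GFP-only and 0.144 and 0.118 in double-negative cells. Both GFP-only libraries were above the other 6, and *En1* was 5.16-fold (interval 2.70 to 10.8) lower in double-positive than in GFP-only cells (log2 difference -1.86, SE 0.44, adjusted p = 0.009), with an adjusted p of 0.067 without double-positive replicate 1, 0.055 without GFP-only replicate 1 and 0.058 without GFP-only replicate 2 (0.0044 to 0.067 over all settings). *Prrx2* had its highest mean, 8.66, in Pdgfra-only cells. Of the 6 listed genes of this group 4 were called higher (13.1% of all genes) and 1 lower (11.1%) in double-positive than in GFP-only cells, and 3 to 5 higher and 0 or 1 lower over the other settings.

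Of the 12 genes called between double-positive and Pdgfra-only cells *Irx5* was higher and 11 were lower, among them *Hoxa13*, *Hoxd9*, *Hoxd10*, *Hoxd11*, *Tbx4*, *Tbx5*, *Tbx15*, *Lmx1b*, *Pitx1* and *Six2*. This count depends on single libraries: it was 3 without double-positive replicate 1, 7 without double-positive replicate 2, 3 without Pdgfra-only replicate 1 and 0 without Pdgfra-only replicate 2, a limma fit in which 19 members had an unadjusted p under 0.05 and 246 of all genes were called. It was 4 with a pseudocount of 0.1 and 7 with only the compared libraries fitted; voom called 11 and edgeR 8. 

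Bone and tendon markers separated these populations as well. The 6 osteoblast markers, all listed, summed to 54429 and 40604 in double-positive, 16959.9 and 15436 in Pdgfra-only, 3347 and 2780.2 in GFP-only and 457 and 587 in double-negative cells, with *Col1a1* the most abundant in each population, and *Bglap* had 0 reads in double-negative cells. The 4 tendon markers, all listed, summed to 41.2 and 42.8 in double-positive, 569.6 and 509 in Pdgfra-only, 9.95 and 9.52 in GFP-only and 28.4 and 29.9 in double-negative cells, with *Tnmd* the most abundant in each (mean 383 in Pdgfra-only cells). Osteoblast sums were thus highest in double-positive cells and tendon sums in Pdgfra-only cells, with no overlap. The 7 chondrocyte markers summed to 321 and 378 in double-positive, 556 and 1895 in Pdgfra-only, 81.5 and 124 in GFP-only and 557 and 979.7 in double-negative cells, where *Col2a1* led except in GFP-only cells, led by *Sox9*, and *Matn1* had 0 reads in double-positive and GFP-only cells. The Pdgfra-only replicate 2 library held the highest chondrocyte sum. Their part in the differences of the patterning genes was not tested.

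*Irx5* (ENSMUSG00000031737), an Iroquois gene of early limb patterning and of bone-forming cells, was the 1 member called higher in double-positive than in Pdgfra-only cells. It was at 17.8 and 7.91 in double-positive, 1.39 and 1.34 in Pdgfra-only, 1.58 and 1.41 in GFP-only and 0.144 and 0.354 in double-negative cells. Double-positive libraries lay above the other 6 but spread from 7.91 to 17.8. *Irx5* was 10.4-fold (interval 5.27 to 23.6) higher in double-positive than in Pdgfra-only cells (log2 difference 2.46, SE 0.43, adjusted p = 0.006), with an adjusted p of 0.056 without Pdgfra-only replicate 1 and 0.066 without Pdgfra-only replicate 2 (0.0047 to 0.066 over all settings). Against GFP-only cells it was 9.33-fold (interval 4.98 to 19.3) higher (log2 difference 2.38, SE 0.43, adjusted p = 0.0017). *Irx3*, its cluster neighbour, was at 2.07 and 1.58 in double-positive, 0.630 and 0.743 in Pdgfra-only, 0.364 and 0.129 in GFP-only and 0.144 and 0.118 in double-negative cells. Double-positive libraries were again highest, and *Irx3* was 13.5-fold (interval 2.00 to 578) above GFP-only cells (log2 difference 1.18, SE 0.34, adjusted p = 0.026), with an adjusted p of 0.11 with edgeR, 0.074 without double-positive replicate 1, 0.06 without GFP-only replicate 1, 0.12 without GFP-only replicate 2 and 0.058 with only the compared libraries fitted (0.0083 to 0.12 over all settings). *Irx3* was not called between the Pdgfra-positive populations (adjusted p = 0.27).

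*Meis1* and *Meis2* were high in the 3 marker-positive populations. *Meis1* was at 61.7 and 60.5 in double-positive, 56.1 and 74.4 in Pdgfra-only, 30.5 and 30.2 in GFP-only and 2.73 and 0.825 in double-negative cells. *Meis2* was at 66.7 and 72.9 in double-positive, 79.0 and 87.5 in Pdgfra-only, 52.3 and 43.3 in GFP-only and 2.15 and 2.24 in double-negative cells. The Pdgfra-positive populations overlapped for *Meis1* and lay close for *Meis2*, GFP-only cells lay under both in the 2 genes, and double-negative cells were lowest. *Meis2* was 23.1-fold higher in GFP-only than in double-negative cells (log2 difference 3.93, SE 0.20, adjusted p = 1.4e-08) and *Meis1* 19.5-fold (interval 10.9 to 38.2) (log2 difference 3.59, SE 0.31, adjusted p = 1.1e-06). *Meis1* was also 2.02-fold higher in double-positive than in GFP-only cells (log2 difference 0.99, SE 0.31, adjusted p = 0.036), with an adjusted p of 0.13 with a pseudocount of 0.1, 0.088 without a variance trend, 0.051 under quantile normalization, 0.13 without double-positive replicate 1, 0.13 without double-positive replicate 2, 0.059 without Pdgfra-only replicate 1, 0.06 without Pdgfra-only replicate 2, 0.16 without GFP-only replicate 1 and 0.15 without GFP-only replicate 2 (0.0032 to 0.16 over all settings). Of the 7 cofactor genes, limma, voom and edgeR called 0 between the Pdgfra-positive populations (5.35% of all genes in limma), and 0 had an unadjusted p under 0.05 in any of them.

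*Pbx2* and *Pbx3*, named after their values were seen, did not follow the Hox genes. *Pbx2* was at 41.3 and 31.5 in double-positive, 31.9 and 41.7 in Pdgfra-only, 55.2 and 31.5 in GFP-only and 22.0 and 32.4 in double-negative cells. All 4 populations of *Pbx2* overlapped, and it was not called between them (adjusted p = 0.27). *Pbx3* was at 17.8 and 15.7 in double-positive, 25.1 and 20.3 in Pdgfra-only, 11.8 and 11.96 in GFP-only and 21.4 and 31.2 in double-negative cells. GFP-only libraries were lowest and did not overlap the double-negative ones, and *Pbx3* was 2.27-fold lower in GFP-only than in double-negative cells (log2 difference -1.06, SE 0.26, adjusted p = 0.0043), with an adjusted p of 0.0501 without double-negative replicate 2 (2.2e-04 to 0.0501 over all settings). Another cofactor, *Meis3*, had population means of 25.8, 19.4, 8.25 and 0.562 in double-positive, Pdgfra-only, GFP-only and double-negative cells, and *Pbx4* none above 2.19.

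*Pitx3* RNA was found almost only in GFP-only cells. This gene, active in differentiating muscle, was at 0.138 and 0.144 in double-positive, 0.126 and 0.148 in Pdgfra-only, 6.68 and 8.10 in GFP-only and 0.144 and 0.825 in double-negative cells, with 0 reads in all 4 Pdgfra-positive libraries. Both GFP-only libraries stood above the other 6. *Pitx3* was at least 7.49-fold lower in double-positive than in GFP-only cells (log2 difference -2.87, SE 0.38, adjusted p = 1.7e-04) and 18.6-fold (interval 6.07 to 93.1) higher in GFP-only than in double-negative cells (log2 difference 2.53, SE 0.38, adjusted p = 1.1e-04).

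*Six4*, a gene of muscle precursors, was at 17.8 and 13.1 in double-positive, 34.4 and 27.2 in Pdgfra-only, 30.5 and 26.6 in GFP-only and 2.44 and 0.354 in double-negative cells. Double-positive libraries lay under both other marker-positive populations, but double-positive cells were called different from neither Pdgfra-only nor GFP-only cells (adjusted p = 0.22 and 0.15). *Six5* was at 26.9 and 35.2 in double-positive, 24.8 and 30.4 in Pdgfra-only, 14.2 and 21.0 in GFP-only and 3.30 and 2.24 in double-negative cells. Its Pdgfra-positive libraries overlapped and lay above GFP-only ones, and it was 6.70-fold higher in GFP-only than in double-negative cells (log2 difference 2.29, SE 0.30, adjusted p = 4.1e-05). *Six2*, named after its values were seen, was at 1.24 and 2.44 in double-positive, 9.45 and 13.8 in Pdgfra-only, 6.43 and 7.59 in GFP-only and 0.144 and 0.590 in double-negative cells. It was 6.70-fold (interval 3.64 to 13.5) lower in double-positive than in Pdgfra-only cells (log2 difference -2.16, SE 0.41, adjusted p = 0.0097), with an adjusted p of 0.061 with a pseudocount of 0.1, 0.077 without double-positive replicate 1 and 0.11 without Pdgfra-only replicate 2 (0.0064 to 0.11 over all settings).

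Muscle, nerve and vessel-wall markers were highest in the GFP-only libraries. All 9 skeletal muscle markers are listed and summed to 71.9 and 69.7 in double-positive, 38.2 and 34.6 in Pdgfra-only, 776 and 816 in GFP-only and 19.96 and 11.4 in double-negative cells, with *Pax7* the most abundant in GFP-only cells (mean 316) and *Myf6* at 0 reads in Pdgfra-only and double-negative cells. The 8 Schwann cell precursor and nerve markers, all listed, summed to 112 and 72.2 in double-positive, 20.2 and 39.2 in Pdgfra-only, 449 and 413 in GFP-only and 26.7 and 40.6 in double-negative cells, led in GFP-only cells by *Erbb3* (mean 131), with *Foxd3* at 0 reads in double-negative cells. The 8 pericyte and smooth muscle markers, all listed, summed to 582 and 500.5 in double-positive, 409 and 425 in Pdgfra-only, 2390.4 and 3096 in GFP-only and 90.5 and 148 in double-negative cells, led in GFP-only cells by *Rgs5* (mean 883). In each list both GFP-only libraries stood above the other 6. The part of these cell types in the levels of *Pitx3*, *En1* and the *Hoxc* genes in GFP-only cells was not tested.

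Double-positive against GFP-only cells gave 5 lower members (11.1% of all genes), among them *Pitx3*, *En1* and *Six2*. The 13 higher ones (13.1% of all genes) were *Hoxa2*, both *Hoxa3* entries, *Hoxa5*, *Meis1*, *Meis3*, *Tbx5*, *Prrx1*, *Prrx2*, *Shox2*, *Lmx1a*, *Irx3* and *Irx5*. The adjusted p of *Six2* became 0.065 with a pseudocount of 0.1, 0.1 without double-positive replicate 1, 0.074 without GFP-only replicate 1 and 0.11 without GFP-only replicate 2 (0.013 to 0.11 over all settings). The count of 18 was 9 without GFP-only replicate 1 and 12 without GFP-only replicate 2, and lay between 14 and 21 without any other library. The listed *Lhx* genes were low, with no library above 3.66. *Lhx6* was at 0.138 and 0.719 in double-positive, 0.126 and 0.446 in Pdgfra-only, 0.121 and 3.22 in GFP-only and 1.29 and 3.66 in double-negative cells. *Lhx9*, active in early limb mesenchyme, was at 0.138 and 0.431 in double-positive, 2.14 and 1.34 in Pdgfra-only, 0.121 and 0.129 in GFP-only and 0.144 and 0.354 in double-negative cells. Only the Pdgfra-only libraries of *Lhx9* were both above the floor, and it was 12.6-fold (interval 1.87 to 540.2) higher there than in double-negative cells (log2 difference 1.12, SE 0.35, adjusted p = 0.015), with an adjusted p of 0.13 under median centring, 0.14 under quantile normalization, 0.079 with edgeR, 0.082 without Pdgfra-only replicate 1 and 0.096 without double-negative replicate 1 (0.0053 to 0.14 over all settings).

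Levels can be compared between genes per kb of exon. In double-positive cells *Prrx1* had the highest value per kb, 35.4 (libraries 32.3 to 38.6), and *Tbx15* was at 15.1 (libraries 14.5 to 15.7). In Pdgfra-only cells *Prrx1* was at 43.9 (libraries 41.4 to 46.3) and *Tbx15* at 39.1 (libraries 35.3 to 42.9), with overlapping ranges, and *Tbx5* was at 13.3 (libraries 12.9 to 13.7). In GFP-only cells *Tbx15* was at 13.7 (libraries 13.6 to 13.9) and *Prrx1* at 13.5 (libraries 13.3 to 13.7), which overlapped. Double-negative cells were led by *Pbx2* at 7.47 (libraries 6.04 to 8.91) and *Pbx3* at 4.11 (libraries 3.34 to 4.88), and their *Prrx1* was at 1.07 (libraries 0.895 to 1.246). By mean, the highest Hox gene per kb was *Hoxc6* in double-positive cells (9.26 (libraries 8.11 to 10.4)), *Hoxc10* in Pdgfra-only cells (12.1 (libraries 8.01 to 16.2)) and *Hoxc8* in GFP-only cells (7.77 (libraries 7.67 to 7.87)). These ranks are not separated by library. *Hoxa7* in double-positive cells (libraries 8.44 to 9.17) and *Hoxc4* in GFP-only cells (libraries 5.08 to 8.21) overlapped them. In Pdgfra-only cells the *Hoxc6* mean, 9.50, lay within the *Hoxc10* range.

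Signalling genes of the limb bud were mostly called higher in Pdgfra-only and in GFP-only than in double-negative cells. Of 21 genes 16 are listed; limma called, with the percent of all genes in parentheses, 1 higher (3.22%) and 1 lower (2.13%) in double-positive than in Pdgfra-only cells, 11 higher (13.1%) and 1 lower (11.1%) in double-positive than in GFP-only cells, 16 higher (32.9%) in Pdgfra-only than in double-negative cells, and 12 higher (30.1%) in GFP-only than in double-negative cells. Their median log2 differences in these comparisons were -0.15, 1.40, 4.32 and 2.09. *Ptch1*, the hedgehog receptor and target, was at 319.7 and 231 in double-positive, 157 and 158 in Pdgfra-only, 142 and 122 in GFP-only and 112 and 100.3 in double-negative cells. *Fgfr2*, an FGF receptor of limb and bone, was at 232 and 125 in double-positive, 83.6 and 89.0 in Pdgfra-only, 16.9 and 16.6 in GFP-only and 4.74 and 5.78 in double-negative cells. The BMP receptor gene *Bmpr1a* was at 245 and 303 in double-positive, 265 and 273 in Pdgfra-only, 238 and 202 in GFP-only and 7.32 and 8.84 in double-negative cells. *Gli3*, a hedgehog effector that limits digit number, was at 120.0 and 107 in double-positive, 123.4 and 129.6 in Pdgfra-only, 78.8 and 64.96 in GFP-only and 3.88 and 5.78 in double-negative cells. *Fgfr2* separated the Pdgfra-positive populations from GFP-only cells, whereas the 3 marker-positive populations lay within 202 and 303 for *Bmpr1a* and *Ptch1* was high in double-negative cells too.

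Of 24 other limb and mesenchyme transcription factors 15 are listed; limma called, with the percent of all genes in parentheses, 2 higher (3.22%) in double-positive than in Pdgfra-only cells, 8 higher (13.1%) in double-positive than in GFP-only cells, 11 higher (32.9%) in Pdgfra-only than in double-negative cells, and 4 higher (30.1%) in GFP-only than in double-negative cells (median log2 differences -0.39, 1.75, 1.95 and 0.51). *Dlx3*, a homeobox gene of bone-forming cells, was at 59.5 and 43.6 in double-positive, 3.66 and 5.49 in Pdgfra-only, 5.46 and 6.05 in GFP-only and 1.58 and 0.825 in double-negative cells, and its paralogue *Dlx5* at 41.8 and 25.2 in double-positive, 15.00 and 9.65 in Pdgfra-only, 4.01 and 3.22 in GFP-only and 1.58 and 1.77 in double-negative cells. *Osr1* was at 33.8 and 39.5 in double-positive, 77.3 and 56.0 in Pdgfra-only, 3.28 and 5.53 in GFP-only and 0.431 and 0.354 in double-negative cells. *Osr2*, like *Osr1* a factor of connective tissue and joints, was at 30.2 and 34.6 in double-positive, 58.4 and 50.0 in Pdgfra-only, 8.62 and 6.05 in GFP-only and 0.144 and 0.118 in double-negative cells. The *Dlx* genes were highest in double-positive and the *Osr* genes in Pdgfra-only cells, with no overlap, and *Dlx3* was called between these populations (log2 difference 3.24, SE 0.37, adjusted p = 3.4e-04). Among 16 somite and axial factors 9 are listed; limma called, with the percent of all genes in parentheses, 1 higher (3.22%) and 2 lower (2.13%) in double-positive than in Pdgfra-only cells, 5 higher (13.1%) and 3 lower (11.1%) in double-positive than in GFP-only cells, 5 higher (32.9%) and 1 lower (26.8%) in Pdgfra-only than in double-negative cells, and 5 higher (30.1%) and 1 lower (23.6%) in GFP-only than in double-negative cells (median log2 differences 0.16, 1.56, 1.56 and 1.39). *Meox1*, a somite gene, was at 30.0 and 36.9 in double-positive, 99.7 and 103 in Pdgfra-only, 1.82 and 1.67 in GFP-only and 1.01 and 1.77 in double-negative cells and *Meox2* at 109 and 156 in double-positive, 140.3 and 137 in Pdgfra-only, 14.7 and 21.2 in GFP-only and 3.59 and 5.31 in double-negative cells. *Pax7*, a muscle precursor gene also in the muscle list, was at 10.4 and 14.5 in double-positive, 0.378 and 0.446 in Pdgfra-only, 296 and 336 in GFP-only and 1.29 and 1.53 in double-negative cells. *Foxc1* was at 48.2 and 36.7 in double-positive, 16.8 and 27.5 in Pdgfra-only, 6.92 and 4.76 in GFP-only and 0.431 and 3.66 in double-negative cells. *Meox1* peaked in Pdgfra-only, *Foxc1* in double-positive and *Pax7* in GFP-only cells, and *Meox2* overlapped between the Pdgfra-positive populations.

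The neural crest factors *Sox8* and *Sox10* were highest in GFP-only cells. Of 12 genes 8 are listed; limma called, with the percent of all genes in parentheses, 2 higher (3.22%) in double-positive than in Pdgfra-only cells, 1 higher (13.1%) and 4 lower (11.1%) in double-positive than in GFP-only cells, 4 higher (32.9%) in Pdgfra-only than in double-negative cells, and 8 higher (30.1%) in GFP-only than in double-negative cells (median log2 differences 0.26, -1.08, 1.85 and 3.12). *Sox10*, a crest and glial factor that the Schwann cell list also holds, was at 13.4 and 9.34 in double-positive, 0.126 and 1.04 in Pdgfra-only, 83.2 and 85.8 in GFP-only and 0.431 and 1.30 in double-negative cells. *Sox8*, of the same family, was at 12.8 and 11.4 in double-positive, 2.65 and 5.197 in Pdgfra-only, 162 and 142 in GFP-only and 3.88 and 3.66 in double-negative cells. Both were highest in GFP-only and next in double-positive cells, with no overlap between these populations, and both were called higher in double-positive than in Pdgfra-only cells (adjusted p = 0.0014 and 0.016). That of *Sox8* became 0.096 without double-positive replicate 1, 0.061 without double-positive replicate 2, 0.13 without Pdgfra-only replicate 1, 0.059 without GFP-only replicate 1, 0.058 without GFP-only replicate 2 and 0.1 with only the compared libraries fitted (0.0054 to 0.13 over all settings). *Snai2* was at 49.6 and 46.4 in double-positive, 81.8 and 48.3 in Pdgfra-only, 57.2 and 47.2 in GFP-only and 1.87 and 5.31 in double-negative cells, and *Sox9*, also in the chondrocyte list, at 44.9 and 23.1 in double-positive, 57.9 and 52.1 in Pdgfra-only, 33.1 and 31.3 in GFP-only and 8.76 and 10.7 in double-negative cells. *Snai2* overlapped in all 3 marker-positive populations, and *Sox9* in double-positive and GFP-only cells.

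All 10 other Hox cofactors and regulators are listed; limma called, with the percent of all genes in parentheses, 2 lower (11.1%) in double-positive than in GFP-only cells, 4 higher (32.9%) and 5 lower (26.8%) in Pdgfra-only than in double-negative cells, and 5 higher (30.1%) and 4 lower (23.6%) in GFP-only than in double-negative cells. Their median log2 differences, that of double-positive against Pdgfra-only cells first, were -0.02, -0.46, -0.59 and 0.18. Between double-positive and Pdgfra-only cells limma, voom and edgeR called 0 of them (5.35% of all genes in limma), and 3 were higher and 2 lower at an unadjusted p under 0.05 in limma. *Mll1*, which maintains Hox expression, was at 300.1 and 338 in double-positive, 381 and 387 in Pdgfra-only, 491 and 490.5 in GFP-only and 305 and 298 in double-negative cells. *Ezh2*, of the complex that silences Hox genes, was at 42.7 and 38.1 in double-positive, 29.1 and 29.3 in Pdgfra-only, 76.1 and 77.8 in GFP-only and 226 and 219 in double-negative cells. *Ctcf*, a boundary factor of Hox clusters, was at 67.8 and 71.4 in double-positive, 72.0 and 77.7 in Pdgfra-only, 91.2 and 89.7 in GFP-only and 197 and 206 in double-negative cells, and *Kdm6a*, a demethylase that counters *Ezh2*, at 70.3 and 70.0 in double-positive, 64.2 and 91.9 in Pdgfra-only, 69.3 and 93.3 in GFP-only and 161 and 177 in double-negative cells. *Ezh2*, *Ctcf* and *Kdm6a* were highest in both double-negative libraries, and *Mll1* in both GFP-only libraries.

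Endothelial, epidermis and neuron markers were summed as well. The 7 endothelial markers, all listed and all with reads in each population, summed to 59.2 and 93.3 in double-positive, 66.7 and 66.4 in Pdgfra-only, 66.4 and 109.7 in GFP-only and 58.2 and 169 in double-negative cells, and these sums overlapped between populations although CD31 positive cells were gated out. Their most abundant genes were *Cdh5*, *Tek*, *Tek* and *Vwf* in double-positive, Pdgfra-only, GFP-only and double-negative cells. Of 5 epidermis markers 2 are listed and summed to 6.08 and 1.15 in double-positive, 7.06 and 2.38 in Pdgfra-only, 18.7 and 29.8 in GFP-only and 0.287 and 0.707 in double-negative cells, with *Trp63* the most abundant except in double-negative cells, where it had 0 reads and *Krt10* led. Of 5 neuron markers 2 are listed and summed to 4.70 and 2.01 in double-positive, 5.80 and 5.94 in Pdgfra-only, 0.971 and 0.515 in GFP-only and 0.287 and 0.707 in double-negative cells, with *Stmn2* leading in Pdgfra-only cells, where *Tubb3* had 0 reads, and *Tubb3* leading in the others. Their part in the results was not tested.

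Promoters of the genes lower in double-positive than in Pdgfra-only cells were read from RefSeq sequences (build GRCm38.p6), which match 39 of the 63 member symbols with 45 promoters. In the 250 bases before each start, 4 motifs were searched on both strands. The MEIS motif TGACAG was in 13.3% of member promoters and 15.9% of all 32851 promoters. The PBX with HOX motif TGATNNAT was in 8.89% and 7.68%, the T-box motif AGGTGTGA in 2.22% and 1.12%, and the homeodomain motif TAATTA in 8.89% and 4.84%. TAATTA and TGATNNAT can overlap in a sequence. The genes lower in double-positive cells have 8 promoters of 7 genes, and 1, 1, 1 and 2 of these hold the motifs in that order. *Hoxd9* and *Six2* are printed because they were called lower and hold a T-box or a MEIS motif, and *Lmx1b* because it was called lower and holds none of the 4. Capitals mark the motifs, which in *Six2* read in both directions. For *Hoxd9* the 167 bases outside annotated coding transcripts are shown, at chr2:74697513-74697679 on the plus strand; *Six2* is chr17:85688255-85688504 and *Lmx1b* chr2:33641099-33641348, both on the minus strand, with 250 bases each. A match describes the letters only.
Hoxd9: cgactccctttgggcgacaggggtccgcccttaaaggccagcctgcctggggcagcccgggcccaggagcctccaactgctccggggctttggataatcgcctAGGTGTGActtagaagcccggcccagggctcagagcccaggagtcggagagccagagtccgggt
Six2: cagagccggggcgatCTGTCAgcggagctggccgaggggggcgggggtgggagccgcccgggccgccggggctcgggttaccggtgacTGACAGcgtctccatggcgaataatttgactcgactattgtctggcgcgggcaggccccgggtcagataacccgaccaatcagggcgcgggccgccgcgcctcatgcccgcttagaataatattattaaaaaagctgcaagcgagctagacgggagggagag
Lmx1b: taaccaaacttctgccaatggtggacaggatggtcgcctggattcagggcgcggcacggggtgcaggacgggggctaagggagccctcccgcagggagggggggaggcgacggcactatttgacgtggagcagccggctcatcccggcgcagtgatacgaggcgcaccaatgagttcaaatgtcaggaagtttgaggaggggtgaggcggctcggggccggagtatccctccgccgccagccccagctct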

How the data were processed

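The deposited signal values of the 8 libraries were made by the authors with cutadapt, RSEM 1.17 on NCBIM37 transcripts, a filter on low counts and voom normalization. Every value gave whole reads (100% within 0.01) as reads plus 0.5 over an effective size. Members and gene lists were chosen with earlier results of these data known. R 4.3.3 with limma 3.58.1 fitted log2(value + 1) of all 15880 genes with a variance trend, a mean for each population (4 residual degrees of freedom) and two-sided moderated tests with Benjamini-Hochberg adjustment. Alternatives were a pseudocount of 0.1, a filter (over 2 in 2 libraries), no trend, other scalings, library weights, voom and edgeR 4.0.16 on the reads, a threshold of 0.1, the replicate block, only the compared libraries fitted, and each library left out. Replicate numbers may pair libraries from the same pups. Deviations of equal-numbered libraries correlated by 0.00433 to 0.0812 across all genes and by -0.119 to 0.217 across the members. The value of 0.217 was that of double-positive and Pdgfra-only cells. Genes are not independent replicates. Named genes were, in each family, the 3 with the highest mean and the 3 with the smallest p between populations, Hox genes with a mean of at least 10, and the limb comparators *Tbx5*, *Tbx4*, *Pitx1* and *Hoxc5* to *Hoxc11*; of each other list, 4 at most by mean. Some gene results are not reported here. Python 3.11.15 drew the figures and read the promoters.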

Additional observations from a re-analysis of the deposited data

Results flagged for a closer look

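In the genes below the GFP difference among Pdgfra-positive cells (double-positive minus Pdgfra-only) differed from that among Pdgfra-negative cells (GFP-only minus double-negative), by the limma interaction term on log2(value + 1). Each value below is the first difference minus the second, on the log2 scale, with its adjusted p in parentheses and 2 libraries per population. Among *Hoxa* genes it was -2.32 for *Hoxa2* (0.0032), -2.29 for *Hoxa3* (0.002), -1.59 for *Hoxa5* (0.045), -2.14 for *Hoxa6* (0.017), -2.72 for *Hoxa7* (2.4e-04), -3.26 for *Hoxa9* (7.0e-04) and -2.64 for *Hoxa10* (0.0045), with *Hoxa3* under ENSMUSG00000079560. *Hoxb4* gave -1.60 (0.031). Among *Hoxc* genes it was -3.68 for *Hoxc4* (1.8e-04), -3.05 for *Hoxc5* (9.5e-04), -3.47 for *Hoxc6* (4.3e-05), -3.53 for *Hoxc8* (8.8e-05), -2.38 for *Hoxc9* (0.004), -3.78 for *Hoxc10* (2.1e-04) and -1.34 for *Hoxc11* (0.047). The *Hoxd* genes had -2.48 for *Hoxd8* (0.0034), -2.13 for *Hoxd9* (0.0089) and -2.41 for *Hoxd11* (0.0063). Cofactors had -3.67 for *Meis1* (3.3e-05) and -4.18 for *Meis2* (3.5e-07), and T-box genes -4.35 for *Tbx3* (9.2e-06), -4.95 for *Tbx4* (7.2e-05), -2.66 for *Tbx5* (9.8e-04) and -5.72 for *Tbx15* (1.4e-07). The other homeobox genes had -2.06 for *Lmx1b* (0.014), -3.88 for *Prrx1* (1.6e-07), -1.54 for *Shox2* (0.045), -2.05 for *Pitx1* (0.01) and -2.53 for *Pitx3* (0.0022). *Pitx3* had 0 reads in all 4 Pdgfra-positive libraries, so its value restates the GFP-only against double-negative difference (2.53). Where the double-positive against Pdgfra-only difference was small, the value likewise mostly restates the GFP-only against double-negative difference. Examples, with the small difference first, are *Hoxc4* (-0.02 and 3.66), *Hoxc6* (-0.05 and 3.42), *Meis1* (-0.08 and 3.59) and *Shox2* (-0.01 and 1.52). *Hoxc11*, *Hoxd9*, *Hoxd11*, *Lmx1b* and *Pitx1* were at or under the floor in both Pdgfra-negative populations. Their values thus mostly restate the double-positive against Pdgfra-only differences (-1.20, -1.87, -2.34, -2.16 and -1.65 in that order). For *Six4* and *Six5* the values were -4.73 (3.5e-05) and -2.13 (0.0015). All these values are negative, and the median over all genes was -0.16. Double-negative cells, whose blood genes are described above, enter each value, and their part in it was not tested. For some genes the adjusted p was over 0.05 in other settings. For *Hoxa5* it became 0.12 under median centring, 0.19 under quantile normalization, 0.078 without double-positive replicate 1, 0.1 without double-positive replicate 2, 0.13 without Pdgfra-only replicate 1, 0.081 without Pdgfra-only replicate 2, 0.17 without GFP-only replicate 2 and 0.14 without double-negative replicate 1 (0.02 to 0.19 over all settings). *Hoxa6* had 0.083 under quantile normalization, 0.065 without double-positive replicate 1, 0.068 without Pdgfra-only replicate 2, 0.085 without GFP-only replicate 2 and 0.059 without double-negative replicate 1 (0.0056 to 0.085). *Hoxb4* had 0.098 under median centring, 0.13 under quantile normalization, 0.059 without double-positive replicate 2, 0.099 without Pdgfra-only replicate 1, 0.07 without GFP-only replicate 1, 0.068 without GFP-only replicate 2, 0.09 without double-negative replicate 1 and 0.053 without double-negative replicate 2 (0.0082 to 0.13). *Hoxc11* had 0.06 with the replicate block, 0.17 under median centring, 0.12 under quantile normalization, 0.051 with library weights, 0.055 with voom, 0.11 with edgeR, 0.066 without double-positive replicate 1, 0.065 without double-positive replicate 2, 0.13 without Pdgfra-only replicate 2, 0.11 without GFP-only replicate 1, 0.059 without GFP-only replicate 2, 0.11 without double-negative replicate 1 and 0.11 without double-negative replicate 2 (0.021 to 0.17). *Lmx1b* had 0.14 with a pseudocount of 0.1, 0.24 with voom, 0.37 with edgeR, 0.052 without Pdgfra-only replicate 2, 0.058 without GFP-only replicate 1 and 0.064 without double-negative replicate 1 (0.01 to 0.37). *Shox2* had 0.069 without a variance trend, 0.12 under median centring, 0.25 under quantile normalization, 0.064 with voom, 0.17 without double-positive replicate 2, 0.087 without Pdgfra-only replicate 1, 0.14 without Pdgfra-only replicate 2, 0.13 without GFP-only replicate 1, 0.083 without GFP-only replicate 2 and 0.13 without double-negative replicate 1 (0.0072 to 0.25). *Hoxd9* had 0.055 with voom and 0.097 with edgeR (0.0054 to 0.097), *Hoxd11* 0.065 with edgeR (0.0055 to 0.065) and *Pitx3* 1 with edgeR (0.0018 to 1).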

How the results depend on the processing

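The count of members called between double-positive and Pdgfra-only cells, 12 as reported, was 4 with a pseudocount of 0.1, 7 with only the compared libraries fitted and 0 to 11 when 1 library was left out. For double-positive against GFP-only cells, 18 as reported, leaving out 1 library gave 9 to 21. Fits with fewer libraries have fewer degrees of freedom, and the cause was not tested. The other counts stayed within 1.5 times under every alternative: leaving out 1 library gave 53 to 58 between the 4 populations, 35 to 40 for GFP-only and 48 to 52 for Pdgfra-only against double-negative cells, and 36 to 43 for the interaction. With the replicate number as a replicate block, 11 members were called between double-positive and Pdgfra-only cells. A lone library left in a population was assumed to vary like the other populations. Of 125 calls for named genes, 95 passed in every alternative, 30 were lost in at least 1, and 0 changed direction. This tally leaves out the genes named after their values were seen. The calls given above for *En1*, *Pbx3*, *Six2*, *Hoxd10* and *Hoxa13* were each lost in at least 1 alternative. In double-negative cells, whose 2 libraries have the most reads on listed genes, 41 of 64 members were at or under the floor of 3 reads.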
